A study of Mus musculus with 30 samples.

Results

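Regulators of NF-κB and a set of its chemokine, adhesion and growth factor targets were followed across sorted mammary epithelial cells of the mouse. The 10 genes Nfkbia, Nfkbib, Tnfaip3, Birc3, Cxcl1, Cxcl2, Ccl2, Icam1, Csf1 and Cx3cl1 were taken by name, and all 10 were among the 11137 genes of the deposited table. The study asked what the loss of Rank, the receptor for Rankl, in luminal cells does to luminal cells and to their basal neighbours before and after a pregnancy. All animals carried K8rta, TETO CRE and the mTmG reporter and received doxycycline at 1 mg per ml of drinking water, from week 3 to week 8 of age by the labels and from week 4 by the methods. In the K8iΔRank animals (RANK fl/fl) the Cre, driven from the Krt8 promoter and so restricted to luminal cells, deletes Rank there and turns the reporter green, whereas basal cells of the same animals keep Rank. K8imTmG animals carry no floxed Rank and were the controls. Virgin females were compared with age-matched parous females killed after 30 days of involution. By the methods, control dams nursed until their pups were taken away whereas K8iΔRank dams lost the litter of a first pregnancy, so that among parous animals genotype and length of nursing cannot be told apart.

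Luminal and basal cells were sorted and sequenced from 17 mice, 13 of which gave both lineages, for 30 libraries in all. The luminal libraries came from 3 virgin K8imTmG, 3 virgin K8iΔRank, 5 parous K8imTmG and 4 parous K8iΔRank mice. The basal libraries came from 3 virgin K8imTmG, 4 virgin K8iΔRank, 4 parous K8imTmG and 4 parous K8iΔRank mice. Values are normalized counts, that is, deduplicated 3′ end reads divided by the size factor of the library. They are not scaled by gene length, and levels were compared between libraries but not between genes.

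NF-κB dimers are held in the cytoplasm by IκB proteins, and signals from receptors such as Rank, the TNF receptors or the IL-1 receptor lead to the destruction of IκB and the entry of the dimers into the nucleus. Among the genes that they then switch on are regulators of the pathway itself. Nfkbia encodes IκBα, the fast-resynthesized inhibitor of the pathway, Tnfaip3 encodes the ubiquitin-editing enzyme A20, and Birc3 encodes the ubiquitin ligase cIAP2. Nfkbib encodes IκBβ, another inhibitor of the pathway, and is not counted here among the genes that NF-κB switches on. Other targets act on neighbouring cells. Cxcl1 and Cxcl2 attract neutrophils through Cxcr2, Ccl2 attracts monocytes through Ccr2, Cx3cl1 (fractalkine) is a membrane-tethered chemokine read by Cx3cr1, Icam1 is the endothelial and epithelial ligand of leukocyte integrins, and Csf1 is the growth factor of macrophages, which take part in mammary branching and involution. In the mammary gland Rank is carried by basal cells and luminal progenitors and answers the Rankl made by hormone-sensing luminal cells.

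Matches to the κB consensus, the kind of sequence that NF-κB binds, are shown next to the start of these genes. Binding to them was not measured. From 250 bases before to 50 bases after the start of the canonical transcript (GRCm39, Gencode vM39), 6 of the 10 genes held the κB consensus, a motif of 10 letters searched on both strands, against 10.1% of the 10897 genes of the table that had such a window, 28.6% of 14 other NF-κB targets and 50% of 8 heat shock genes. Each stretch below is read 5′ to 3′ on the strand of its gene, and capitals mark the match. The first of the 2 Tnfaip3 stretches matches on both strands, and those of Cxcl1 and Cxcl2 overlap a second match 1 base further on.
Nfkbia, -29 to -20, chr12:55539442-55539471: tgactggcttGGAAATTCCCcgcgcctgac
Tnfaip3, -97 to -88, chr10:18891264-18891293: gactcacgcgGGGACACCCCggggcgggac
Tnfaip3, 17 to 26, chr10:18891151-18891180: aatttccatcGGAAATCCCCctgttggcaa
Cxcl1, -61 to -52, chr5:91039023-91039052: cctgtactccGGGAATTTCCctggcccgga
Cxcl2, -69 to -60, chr5:91051651-91051680: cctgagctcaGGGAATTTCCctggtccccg
Icam1, -243 to -234, chr9:20926422-20926451: aaggagaGGAAACCCCCccataaggcgcgc
Csf1, -133 to -124, chr3:107667920-107667949: gggccttgagGGAAAGTCCCtaggggccag
Cxcl1 and Cxcl2, neighbours on chromosome 5, share the same 10 letters at nearly the same distance from their starts, and Nfkbia holds those letters on the opposite strand. Nfkbib, Birc3, Ccl2 and Cx3cl1 had no match, which says only that these letters are not in that window. By the same annotation Nfkbia (ENSMUSG00000021025.10) lies on chromosome 12 from 55535332 to 55539432 on the minus strand, and Icam1 (ENSMUSG00000037405.10) on chromosome 9 from 20926672 to 20940113 on the plus strand. Csf1 (ENSMUSG00000014599.12) lies on chromosome 3 from 107648364 to 107667806 on the minus strand, and Ccl2 (ENSMUSG00000035385.6) on chromosome 11 from 81926397 to 81928279 on the plus strand.

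Libraries held 340445 to 3130419 reads, so that 1 read was worth 0.381 to 5.43 normalized counts, and a level of 3 reads was taken as the floor below which a value is not interpreted. The libraries also fell into 2 sets by Clec2d, a lectin gene, a split for which the labels give no reason, with 65.6 to 199 normalized counts in 14 Clec2d-high and 0.641 to 8.68 in 16 Clec2d-low libraries. The sets coincide with genotype among virgin luminal and among virgin basal libraries, and with stage among luminal K8iΔRank libraries, so that these comparisons cannot be told apart from the split. Parous luminal K8imTmG libraries were mixed (mice 494 and 557 high), as were parous basal K8iΔRank libraries (mice 794 and 830 high). Lineage markers matched the labels, with the 9 basal markers summing to 10092 to 16836 normalized counts in basal and 62.9 to 315 in luminal libraries and the 8 luminal markers to 541 to 1541 and 3869 to 10602. Tnfrsf11a, the gene of Rank, was at 39.5 ± 22.1 (SD, n = 5) in parous luminal K8imTmG and 33.7 ± 5.82 (SD, n = 4) in parous luminal K8iΔRank libraries, but reads from the 3′ end cannot check a deletion inside the gene, so that genotypes are those of the labels. The paper itself reports a clear fall of Rank by qPCR in luminal cells sorted from K8iΔRank mice. As in any bulk measurement, fewer cells of a type and less RNA per cell cannot be told apart.

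**Figure D1:**
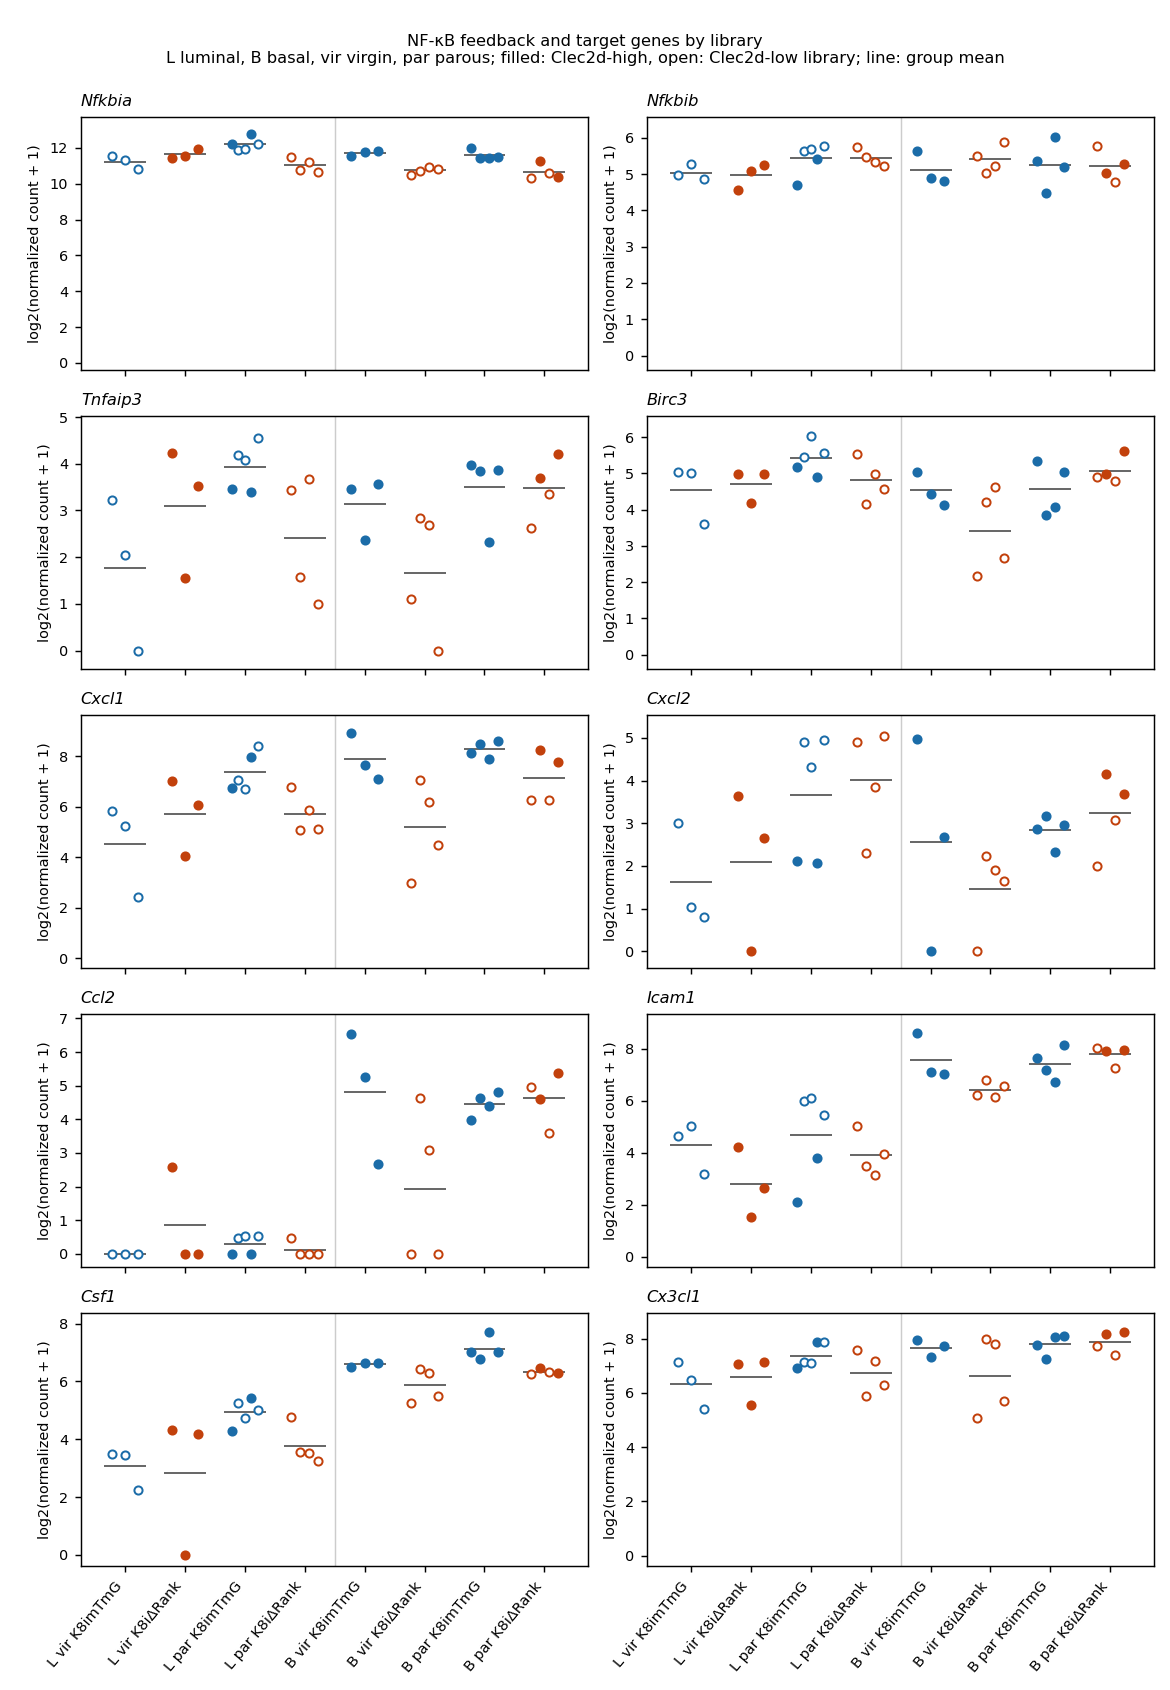
Each panel plots 1 gene as log2(normalized count + 1) on a linear axis, with a point for each of the 30 libraries, blue for K8imTmG and orange for K8iΔRank, filled for Clec2d-high and open for Clec2d-low, and a line at the group mean. The lineages do not overlap for Icam1, Ccl2 is at or near 0 in luminal cells, and Nfkbib stays within 1 band.

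Averaged over the groups, most of the secreted and surface-bound targets were higher in basal cells, whereas none of the regulators Nfkbia, Nfkbib, Tnfaip3 and Birc3 was. Between the 15 luminal and the 15 basal libraries, 6 of the 10 genes passed the test (limma, adjusted p below 0.05 over all genes), 5 of them higher in basal and 1 higher in luminal cells. The background is high, since 55.7% of the 11133 genes tested differed between the lineages in either direction. Differences below are luminal minus basal on the log2(normalized count + 1) scale.

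Icam1 was between 1.92 and 67.9 normalized counts in luminal libraries (median 14.4) and between 69.1 and 392 in basal libraries (median 144). No luminal library reached the lowest basal one. The difference was -3.38 (standard error 0.34, limma adjusted p = 1.06e-09), and Icam1 was higher in the basal library of all 13 mice that gave both lineages.

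Csf1 ranged from 0 to 41.5 normalized counts in luminal libraries (median 17.2) and from 36.9 to 207 in basal libraries (median 87.7). The ranges met only at their edge, where 2 luminal libraries exceeded the lowest basal one. The difference was -2.83 (standard error 0.30, limma adjusted p = 2.52e-09), with basal above luminal in 13 of 13 mice.

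Ccl2 was close to a basal-only transcript in these libraries. Over the 15 luminal libraries it gave 8 reads in all, 4 of them from virgin K8iΔRank mouse 821, and 14 of the 15 were at or under the floor. The 15 basal libraries gave 371 reads, with 0 to 91.9 normalized counts and a median of 23.1. The fitted difference was -3.64 (standard error 0.42, limma adjusted p = 1.35e-08), a size that depends on the pseudocount, since it was -4.32 with a pseudocount of 0.5 and -2.27 with 4.

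Cxcl1 was lower in luminal cells by a smaller margin, and its ranges overlapped widely, from 4.42 to 334 normalized counts in luminal (median 66.1) and from 6.92 to 477 in basal libraries (median 198). The difference was -1.29 (standard error 0.39, limma adjusted p = 0.00629). It stood at -1.53 in the Clec2d-high and at 0.15 in the Clec2d-low set (adjusted p of limma 0.00714 and 0.869), and the basal libraries of the latter are all K8iΔRank. Cx3cl1 ran from 41.9 to 235 normalized counts in luminal (median 137) and from 32.3 to 304 in basal libraries (median 216), a difference of -0.73 (standard error 0.26, limma adjusted p = 0.0193). In the Clec2d-low set it was -0.28 (adjusted p of limma 0.649), and it just missed the threshold without virgin luminal K8iΔRank mouse 822 (-0.61) or virgin luminal K8imTmG mouse 538 (-0.62), with limma adjusted p = 0.0530 and 0.0505.

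Of the regulators of the pathway only Nfkbia passed, and in the other direction. It was at 1626 to 6976 normalized counts in luminal libraries (median 2961) and at 1275 to 4134 in basal libraries (median 2456), overlapping over most of both ranges. The difference was 0.36 (standard error 0.13, limma adjusted p = 0.0191), and luminal exceeded basal in 10 of 13 mice. The sign was not the same in every group. In virgin K8imTmG mice the mean of Nfkbia was 2438 in luminal and 3353 in basal libraries, whereas in parous K8imTmG mice it was 4829 and 3128. In K8iΔRank mice the luminal and basal means were 3236 and 1718 in virgin and 2159 and 1652 in parous animals. Birc3 differed by 0.48 (standard error 0.24, limma adjusted p = 0.0947), and Tnfaip3, Nfkbib and Cxcl2 by -0.14, -0.03 and 0.34 with 95% confidence intervals of -0.90 to 0.63, -0.35 to 0.29 and -0.63 to 1.30.

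Markers of other cell types moved with the lineage as well. The 4 immune markers that were measured (C1qa, Cd68, Cd74 and Lyz2, of 16 listed) summed to 43.4 to 169 normalized counts in basal and 9.59 to 42.3 in luminal libraries. The 8 fibroblast markers summed to 656 to 1209 and 123 to 970, and the 7 endothelial markers to 87.6 to 1237 and 16.3 to 131. Fabp4, the only adipocyte marker in the table, was at 111 to 2587 in basal and 4.40 to 50.5 in luminal libraries. By the methods, lymphocytes and endothelial cells were gated out with CD45 and CD31. The part of other cells in the basal levels of Icam1, Csf1 and Ccl2 was not tested.

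**Figure D2:**
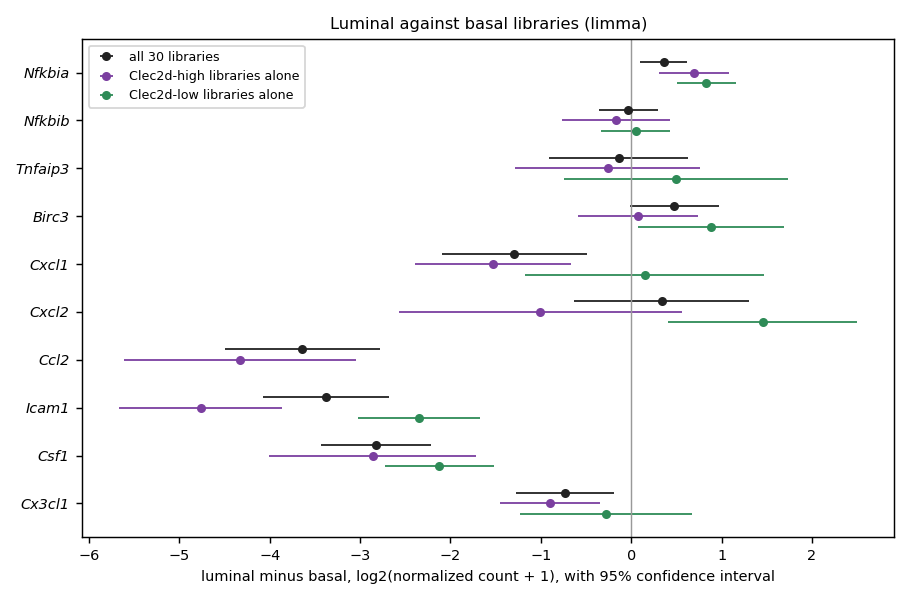
Points are luminal minus basal differences of log2(normalized count + 1) with 95% confidence intervals from limma, for all 30 libraries (black) and for the Clec2d-high (purple) and Clec2d-low (green) libraries alone. Icam1 and Csf1 lie well below 0 in every set and Ccl2 in the 2 sets where it was tested, whereas Cxcl1 is near 0 among Clec2d-low libraries.

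The highest mean level of Nfkbia was that of parous luminal K8imTmG cells, and the values of parous luminal K8iΔRank cells lay below it. The 5 parous K8imTmG libraries were at 4694, 3715, 3974, 6976 and 4787 normalized counts and the 4 parous K8iΔRank libraries at 2872, 1765, 2376 and 1626. Every K8iΔRank library was below every K8imTmG library. The ratio of the means was 0.447, and the difference of K8iΔRank from K8imTmG was -1.16 on the log2 scale (standard error 0.27), which did not pass (limma adjusted p = 0.0949). Against the 3 Clec2d-low K8imTmG libraries alone it was -0.97 (limma adjusted p = 0.0596), and with quantile normalization -0.74. In this comparison 0 of the 9 genes tested passed with limma, with 0.0991% of 10090 genes called, while 4 had an unadjusted p below 0.05. DESeq2 on the recovered reads called Nfkbia and Cxcl1 (adjusted p = 0.00117 and 0.0172), and edgeR called 0 of the 9.

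Other targets had differences of the same sign that did not pass the test. Cxcl1 was at 106, 132, 104, 249 and 334 normalized counts in parous luminal K8imTmG libraries and at 110, 32.9, 57.4 and 33.8 in parous luminal K8iΔRank libraries. Only K8iΔRank mouse 787 reached into the control range, and the difference was -1.66 (standard error 0.44, limma adjusted p = 0.108). Csf1 was at 18.5, 37.2, 25.6, 41.5 and 31.6 against 26.3, 10.8, 10.6 and 8.44, again with mouse 787 as the high library of its group, a difference of -1.17 (standard error 0.35, limma adjusted p = 0.135). Of the 9 genes 2 had a difference above 0 and the median was -0.78, whereas 53.4% of all genes tested were above 0 and their median was 0.04. Mouse 787 held the highest value of its group for Nfkbia, Nfkbib, Birc3, Cxcl1, Icam1, Csf1 and Cx3cl1.

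In virgin luminal cells the order of genotypes was not the same. Nfkbia was at 2961, 2553 and 1800 normalized counts in K8imTmG and 2810, 3017 and 3880 in K8iΔRank libraries, which overlapped. The difference was 0.42 (standard error 0.28, limma adjusted p = 0.405), and it was -0.15 with quantile normalization. None of the 8 genes tested passed (limma, 0 of 8, with 0.984% of 10066 genes called), none had an unadjusted p below 0.05, and DESeq2 and edgeR called 0. All 3 K8imTmG libraries were Clec2d-low and all 3 K8iΔRank libraries Clec2d-high. Icam1 was at 24.4, 32.0 and 8.10 normalized counts in K8imTmG and 17.7, 1.92 and 5.28 in K8iΔRank libraries. The difference was -1.49 (standard error 0.73, limma adjusted p = 0.260), and it was called with array quality weights, at -1.85 (adjusted p = 0.0173).

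**Figure D3:**
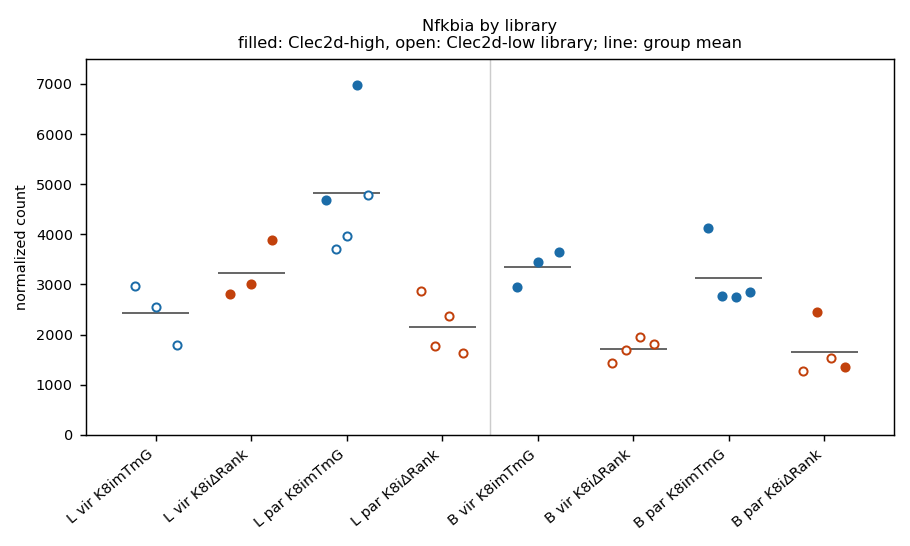
Normalized counts of Nfkbia on a linear axis from 0, with a point for each library, filled for Clec2d-high and open for Clec2d-low, and a line at the mean of each group. The 5 parous luminal K8imTmG libraries lie above the 4 parous luminal K8iΔRank libraries, and in basal cells each K8iΔRank group lies below the K8imTmG group of its stage.

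The effect of the genotype on Nfkbia in luminal cells differed between stages by the test of the interaction. The parous difference minus the virgin difference was -1.59 (standard error 0.40, limma adjusted p = 0.0234), and Nfkbia alone of the 9 genes tested passed, with 12.9% of 10262 genes called. The estimate fell in size to -0.93 with the side of the Clec2d split as a covariate and to -0.61 with quantile normalization (limma adjusted p = 0.354 and 0.383). Without virgin K8imTmG mouse 538 it was -1.38 and without parous K8iΔRank mouse 794 or 830 it was -1.50 and -1.46 (limma adjusted p = 0.0711, 0.0566 and 0.0514). Luminal progenitor markers summed to 957 ± 304 (SD, n = 3) in virgin K8imTmG and 2581 ± 693 (SD, n = 3) in virgin K8iΔRank libraries. In parous libraries the sums were 3029 ± 373 (SD, n = 5) in K8imTmG and 2428 ± 552 (SD, n = 4) in K8iΔRank mice. Like Nfkbia, they were highest in parous K8imTmG and higher in virgin K8iΔRank than in virgin K8imTmG libraries. Unlike Nfkbia, with means of 2159 and 2438, they were higher in parous K8iΔRank than in virgin K8imTmG libraries. Between virgin genotypes 1 of the 5 markers was called, and their median difference was 0.59. In the interaction the median of these 5 markers was -1.24 with Csn3 called below 0, and of 8 luminal markers 3 were called above and 1 below 0. Of the immediate-early genes 1 of 18 was called above and 3 below 0, and of the heat shock genes 0 of 8 above and 2 below. The part of these genes in the interaction of Nfkbia was not tested.

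In luminal control cells parous libraries tended to hold more of these transcripts than virgin ones, with only Csf1 past the test. Between virgin and parous K8imTmG luminal cells all 9 genes tested had a difference above 0, with a median of 1.03, while 49.6% of all genes were above 0 with a median of -0.01. Of the 9 only Csf1 passed, with 2.2% of 10279 genes called, and 7 had an unadjusted limma p below 0.05. Differences are parous minus virgin.

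Csf1 was at 10.3, 9.96 and 3.68 normalized counts in the 3 virgin and at 18.5, 37.2, 25.6, 41.5 and 31.6 in the 5 parous libraries. The groups did not overlap. The ratio of the means was 3.88 and the difference 1.88 (standard error 0.40, limma adjusted p = 0.0447), a call at the edge of the threshold that was kept in 1 of the 8 fits that left out a library (difference 1.47 to 2.10, limma adjusted p = 0.0217 to 0.164). The call was kept only when parous mouse 494, the lowest parous library, was the one left out.

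Cxcl1 and Nfkbia also did not overlap between these stages. Cxcl1 was at 56.4, 36.7 and 4.42 normalized counts in virgin and 104 to 334 in parous libraries, a ratio of 5.70 and a difference of 2.87 (standard error 0.71, limma adjusted p = 0.0680). Nfkbia was at 1800 to 2961 in virgin and 3715 to 6976 in parous libraries, a ratio of 1.98 and a difference of 0.98 (standard error 0.31, limma adjusted p = 0.121). Tnfaip3 was at 8.33, 3.15 and 0 in virgin and at 10.1, 17.2, 15.9, 9.59 and 22.5 in parous libraries, with reads of 13, 6 and 0 against 3 to 52 (difference 2.18, standard error 0.67, limma adjusted p = 0.111). The virgin library of mouse 538 was the lowest of its group for all 9 genes tested, among them Icam1 (8.10) and Cx3cl1 (41.9). Without it 8 of the 9 differences were above 0, Icam1 being at -0.17, and the median fell from 1.03 to 0.78.

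The number of calls in this comparison varied with the tool. DESeq2 on the recovered reads called 5 of the genes in this comparison (Nfkbia, Tnfaip3, Cxcl1, Cxcl2 and Csf1, adjusted p = 0.0122, 0.0348, 0.00324, 0.0361 and 0.00072), limma with array quality weights called 7, and edgeR called Csf1 alone. The shares of all genes that these tools called are not given here, so that the counts cannot be read as an excess over other genes. Against the 3 Clec2d-low parous libraries Cxcl2 and Csf1 passed, with differences of 3.11 and 1.95 (limma adjusted p = 0.0204 and 0.0234). Cxcl2 followed the split among parous K8imTmG mice, at 28.8, 19.0 and 29.9 normalized counts in the 3 Clec2d-low and 3.36 and 3.20 in the 2 Clec2d-high libraries, the last from 2 reads and 1 read. Icam1 behaved alike, at 62.4, 67.9 and 42.4 against 3.36 and 12.8.

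Markers of luminal subtypes moved between these stages too. The 5 luminal progenitor markers summed to 765 to 1308 normalized counts in virgin and 2534 to 3406 in parous K8imTmG libraries, and the 7 hormone-sensing markers to 8684 to 10777 and 667 to 7473. Their part in the parity differences was not tested.

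In luminal K8iΔRank cells none of the 9 genes tested passed between stages (limma, 0 of 9), although 16% of 10249 genes were called, and here stage coincides with the Clec2d split. Of the 9, 2 had an unadjusted p below 0.05, and DESeq2 and edgeR called 0. The difference of Nfkbia was -0.61 (standard error 0.24, limma adjusted p = 0.107) and changed sign to 0.18 with quantile normalization. Cxcl1 differed by 0.01 with a wide 95% confidence interval, from -1.34 to 1.36. Cxcl2 differed by 1.93 (95% confidence interval 0.01 to 3.85, limma adjusted p = 0.150), from 11.4, 0 and 5.28 normalized counts in virgin to 28.9, 3.93, 13.4 and 31.8 in parous libraries.

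In basal cells, which keep Rank in both genotypes, Nfkbia was lower in virgin K8iΔRank animals. The virgin libraries were at 2958, 3455 and 3646 normalized counts in K8imTmG and at 1425, 1684, 1949 and 1813 in K8iΔRank mice. The groups were far apart, with a ratio of the means of 0.512 and a difference of -0.97 (standard error 0.21, limma adjusted p = 0.0233). It was the only 1 of 9 genes that passed, with 8.99% of 10616 genes called. All K8imTmG libraries here were Clec2d-high and all K8iΔRank libraries Clec2d-low. With the side of the split as a covariate, estimated from the parous K8iΔRank libraries, the difference was -0.59 (limma adjusted p = 1.00), and with quantile normalization -0.27 (limma adjusted p = 0.426). The call was also lost without K8iΔRank mouse 825 or K8imTmG mouse 538 or 568 (limma adjusted p = 0.0598, 0.0717 and 0.0720).

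Depth separated the same groups, with 340445 to 1172427 reads in virgin basal K8imTmG and 1200781 to 2104379 in virgin basal K8iΔRank libraries. The parous basal ones held 450064 to 1365008 and 1844364 to 2996649. Among luminal libraries virgin K8iΔRank (814455 to 1158036 reads) lay below virgin K8imTmG (1862812 to 2422876) and below parous K8iΔRank (2214318 to 3130419). Over the 30 libraries Nfkbia had an r of -0.45 with log2 reads, and of -0.35 within groups. The part of depth in these basal and luminal comparisons was not tested.

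The parous basal libraries were ordered alike, but the test was not passed. Nfkbia was at 4134, 2771, 2759 and 2847 normalized counts in K8imTmG and at 1275, 2456, 1531 and 1344 in K8iΔRank mice, again with no overlap (ratio of the means 0.528, difference -0.95, standard error 0.26, limma adjusted p = 0.0816). Within the Clec2d-high libraries, 4 against 2, it was -0.76 (limma adjusted p = 0.464), and with quantile normalization -0.31 (limma adjusted p = 0.437). Csf1 was at 128, 110, 207 and 130 in K8imTmG and 75.1, 87.7, 78.3 and 78.1 in K8iΔRank mice, also without overlap (difference -0.80, standard error 0.22, limma adjusted p = 0.0827), and at -0.74 within the Clec2d-high libraries. In this comparison 0 of the 10 genes passed with limma, with 0.906% of 10592 genes called, 3 had an unadjusted p below 0.05, DESeq2 called Nfkbia and Csf1 (adjusted p = 0.0111 and 0.0155) and edgeR called 0. Without parous K8iΔRank mouse 794, the library with the highest Nfkbia of its group, Nfkbia, Cxcl1 and Csf1 passed (limma adjusted p = 0.0131, 0.0236 and 0.0452). Icam1, Ccl2, Birc3, Cxcl2 and Cx3cl1 had differences of 0.36, 0.17, 0.48, 0.40 and 0.09, each with a 95% confidence interval that includes 0.

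Cxcl1 in parous basal cells followed the Clec2d split within the K8iΔRank group. It was at 303 and 220 normalized counts in the Clec2d-high libraries of mice 794 and 830 and at 75.5 and 75.3 in the Clec2d-low libraries of mice 787 and 798, against 278, 353, 235 and 392 in K8imTmG mice. The difference from K8imTmG was -1.14 with all libraries (standard error 0.41, limma adjusted p = 0.136) and -0.26 among Clec2d-high libraries (limma adjusted p = 0.837).

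In virgin basal K8iΔRank mice the chemokines split the group into 2 pairs. Cxcl1 was at 6.92 and 21.5 normalized counts in mice 820 and 825 and at 133 and 71.8 in mice 821 and 822. Cx3cl1 was at 32.3 and 51.6 against 252 and 223, Ccl2 at 0 and 0 against 23.6 and 7.45, and Birc3 at 3.46 and 5.37 against 17.4 and 23.7. Csf1 was at 36.9 and 44.0 against 84.3 and 76.5. Mice 820 and 825 were the low pair for these 5 genes and also for Tnfaip3 and Cxcl2, but not for Nfkbia, Nfkbib or Icam1. Nfkbia was at 1425 and 1813 against 1684 and 1949 and Icam1 at 73.9 and 93.4 against 111 and 69.1. The pair was also the shallowest of its group, with 1200781 and 1323739 reads against 2104379 and 1934538 in mice 821 and 822. Against virgin basal K8imTmG mice, where Cxcl1 was at 477, 198 and 136, its difference was -2.70 (standard error 0.85, limma adjusted p = 0.0717) with all libraries and -1.25 (limma adjusted p = 0.191) without mice 820 and 825, a pair left out after its values were seen. Icam1, at 392, 136 and 130 in K8imTmG and 69.1 to 111 in K8iΔRank mice, had a difference of -1.15 (standard error 0.38, limma adjusted p = 0.0823) that stayed at -1.12 without that pair. In this comparison 1 of the 9 genes was above 0 and the median was -1.11, against 52.9% of all genes and a median of 0.06, and without the pair the median of the 9 was -0.37.

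Between stages of basal cells limma called none of these genes and no other gene. For K8imTmG cells 0 of 9 genes of the set and 0 of 10538 genes passed (0%), with 969 genes at an unadjusted limma p below 0.05, 44 called by DESeq2 and 8 by edgeR. Csf1 was above its virgin range in every parous library, at 89.1, 99.2 and 97.8 normalized counts in virgin and 110 to 207 in parous mice (difference 0.54, standard error 0.24, limma adjusted p = 0.537). For K8iΔRank cells 0 of 10 and 0 of 10525 genes passed (0%), with 1036 at an unadjusted p below 0.05, 91 called by DESeq2 and 0 by edgeR. The interaction of genotype and stage in basal cells gave 0 of 9 and 0 of 10607 genes (0%), with 1082 at an unadjusted p below 0.05, 18 called by DESeq2 and 0 by edgeR. Of the 9, 10 and 9 genes of the set, 1, 6 and 3 had an unadjusted limma p below 0.05 in these comparisons, in that order.

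Icam1 came nearest to a parity difference in basal K8iΔRank cells. It was at 73.9, 111, 69.1 and 93.4 normalized counts in virgin and at 259, 241, 151 and 245 in parous mice, which did not overlap. The ratio of the means was 2.58 and the difference 1.35 (standard error 0.24, limma adjusted p = 0.197), and DESeq2 and limma with array quality weights called it (adjusted p = 0.000304 and 0.0152). It was 1.20 among the Clec2d-low libraries, 2 parous against 4 virgin, and 1.31 without mice 820 and 825. Birc3 did not overlap between these stages either, at 3.46 to 23.7 normalized counts in virgin and 26.4 to 47.6 in parous mice. Its difference was 1.65 (standard error 0.52, limma adjusted p = 0.469). Over the 10 genes 8 differences were above 0 with a median of 1.50, against 50.3% and 0.00 over all genes, and the median was 0.58 without mice 820 and 825. Several marker sums separated the same libraries. The 5 luminal progenitor markers were at 42.8 to 49.4 normalized counts in virgin and 72.5 to 220 in parous K8iΔRank basal libraries, the 9 basal markers at 11415 to 16836 and 10092 to 11110, and the endothelial markers at 284 to 1237 and 113 to 204. Their part in the difference of Icam1 was not tested.

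**Figure D4:**
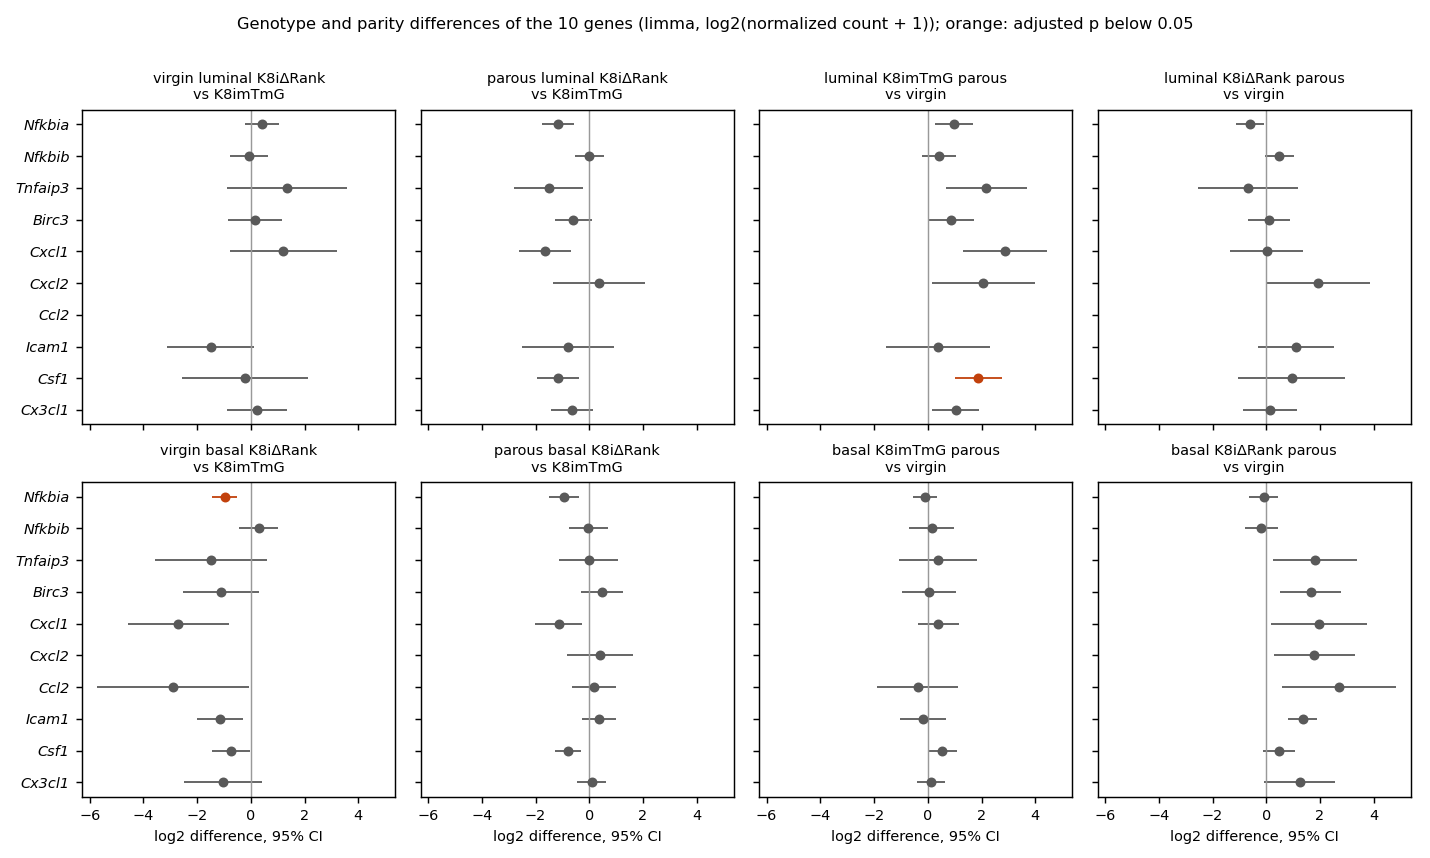
Each panel gives 1 comparison, with points at the limma difference of log2(normalized count + 1) and bars for the 95% confidence interval, orange where the adjusted p is below 0.05, and no point for a gene that did not pass the filter on low values. Only Csf1 in the parity panel of luminal K8imTmG cells and Nfkbia in the virgin basal panel are orange, and the 9 differences of luminal K8imTmG cells with parity are above 0, 8 of them also without virgin mouse 538.

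Within the groups most of these genes went up and down together from mouse to mouse. Pearson's r of the deviations from the group means over the 30 libraries was above 0 for 39 of the 45 pairs of genes, with a median of 0.46 and a range of -0.20 to 0.88. Cxcl1 and Cx3cl1 were the closest pair (0.88), followed by Birc3 with Cx3cl1 (0.79) and Cxcl1 with Tnfaip3 (0.76). Nfkbib stood outside, with r between -0.20 and 0.38 with the other 9, and Nfkbia was tied to Cxcl1 and Cx3cl1 (0.48 with each) but not to Icam1 or Ccl2 (-0.07 and -0.14). These points share library, size factor and depth, and are given as a description.

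Many other genes varied within the groups along the same axes. In 6143 genes outside all lists used here, the first axis of variation within the groups held 30.3% of the variance and the second 18.1%. The deviations of Cxcl1 and Cx3cl1 had an r of 0.75 and 0.73 with the first axis, those of Icam1 and Birc3 0.77 and 0.72 with the second. The sign of an axis is arbitrary and was set to follow the mean deviation of the 10 genes, which favours an r above 0. With that sign 8 and 9 of the 10 genes were above 0 on the first and second axis, a count that carries no evidence. Mice 820 and 825 of the virgin basal K8iΔRank group had scores of -0.36 and -0.17 on the first axis and mice 821 and 822 scores of 0.28 and 0.24. The part of the axes in the differences between groups was not tested.

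**Figure D5:**
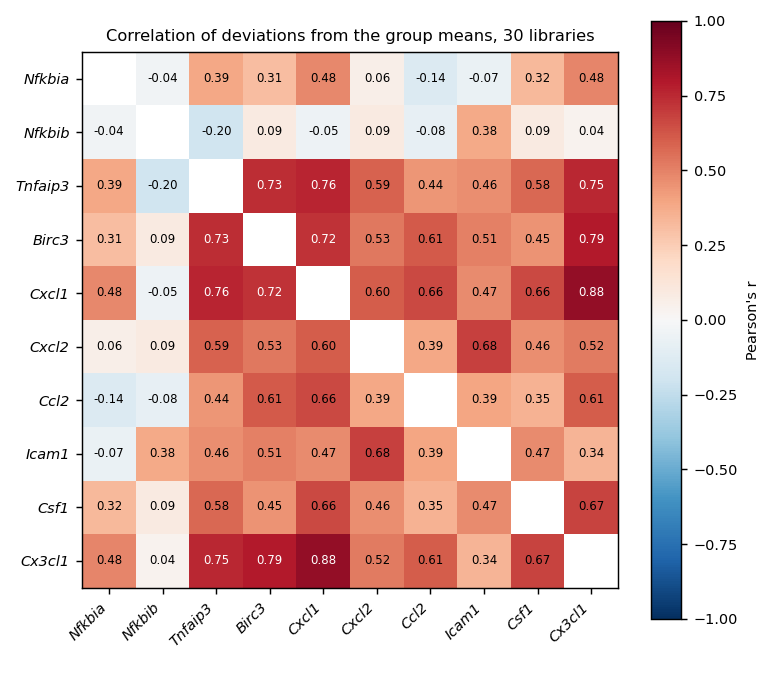
Pearson's r between each pair of the 10 genes, computed from deviations of log2(normalized count + 1) from the group means over 30 libraries, with red above and blue below 0 on a scale from -1 to 1. The block from Tnfaip3 to Cx3cl1 is red throughout, with Cxcl1 and Cx3cl1 at 0.88, while the row of Nfkbib is pale.

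Over the 30 libraries the genes with the most similar pattern were not, for the most part, genes of the NF-κB pathway. Csf1 ran closest to Tspan2 (r = 0.97), Icam1 to Vcam1, another leukocyte adhesion molecule (r = 0.94), and Ccl2 to Gm17019 (r = 0.95). Cxcl1 was closest to Gar1 and Wdr5 (0.93 and 0.91), and Cx3cl1 to Nus1, Wdr5 and Cxcl1, itself a gene of this set (0.93, 0.89 and 0.89). Tnfaip3 was closest to Slc30a5 (0.89), Birc3 to Eed (0.86), Nfkbia to the immediate-early gene Ier5 (0.83) and Nfkbib to Zpr1 (0.65). Cxcl2 was closest to Slc39a14 (0.79), then to Zc3h12a (0.73), which encodes the mRNA-degrading feedback regulator Regnase-1. These correlations carry no test.

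The order of the group means set Csf1 and Icam1 apart from Nfkbia. For Csf1 and Icam1 the 4 basal groups ranked above the 4 luminal groups, and for Csf1 the order from the top was parous K8imTmG (144 ± 43.3, SD, n = 4), virgin K8imTmG (95.4 ± 5.50, SD, n = 3), parous K8iΔRank (79.8 ± 5.46, SD, n = 4) and virgin K8iΔRank (60.5 ± 23.5, SD, n = 4) basal cells. The third and the fourth were closer than the larger of their SDs. For Nfkbia parous luminal K8imTmG cells came first (4829 ± 1285, SD, n = 5) and the basal K8iΔRank groups last (1718 ± 223 in virgin and 1652 ± 547 in parous mice, SD, n = 4 each), with 3 groups between 3128 and 3353 that did not differ beyond their SDs. For Nfkbib no neighbouring groups differed by more than the larger SD, from 43.9 ± 11.3 (SD, n = 5) in parous luminal K8imTmG to 30.8 ± 7.32 (SD, n = 3) in virgin luminal K8iΔRank cells.

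Other parts of the pathway gave few calls outside the lineage comparison. Counts in these lists are to be read beside the share of all genes that limma called. That share was 16% with parity in luminal K8iΔRank and 2.2% in luminal K8imTmG cells, 12.9% in the luminal interaction and 55.7% between lineages. It was 0.984% in the virgin luminal and 8.99% in the virgin basal genotype comparison. Of 24 tested receptors, kinases and NF-κB subunits, 3 rose with parity in luminal K8iΔRank cells and none fell. The subunit Rela rose by 1.35, Nfkb2, which encodes the p100 precursor, by 1.08 and the lymphotoxin receptor gene Ltbr by 0.71 (log2 scale, limma adjusted p = 0.00644, 0.0124 and 0.0401). In this comparison stage coincides with the Clec2d split and with depth. Between lineages 7 of 25 were higher and 6 lower in luminal cells, led by the adaptor Traf5 (-2.78) and the interleukin receptor Il1r1 (2.39). In the luminal interaction 4 of 24 were above 0 (Map3k14, Rela, Il1r1 and Ltbr) and none below, and in the other 8 comparisons none of this list passed (limma), at medians of -0.14 to 0.20.

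The other negative regulators gave no call between genotypes. Of the 10 measured, which include Nfkbie, Bcl3, Tnip1, Cyld and Zfp36, none passed in the 4 luminal and basal genotype comparisons (limma), with medians of -0.31, 0.32, 0.28 and 0.32 in virgin luminal, parous luminal, virgin basal and parous basal cells, against -0.03, 0.04, 0.06 and 0.06 over all genes. With parity in luminal K8iΔRank cells Nfkbie, which encodes IκBε, rose by 1.30 and Zfp36, which encodes the mRNA-destabilizing protein tristetraprolin, fell by 0.88 (limma adjusted p = 0.0226 and 0.0156). In the luminal interaction Zfp36 was at -1.41 (limma adjusted p = 0.0281). Bcl3, a nuclear IκB, was higher in luminal cells by 1.53 (limma adjusted p = 9.69e-09).

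Among 14 other measured targets the lineages differed in 11, with Vcam1 (-5.07) and the protease gene Plau (-4.37) higher in basal cells and Tnfaip2 (3.70) and Tnf (3.48) higher in luminal cells. Parity in luminal K8imTmG cells raised 2 of 13 tested, Tnfaip2 by 1.67 and the hyaluronan receptor Cd44 by 1.84 (limma adjusted p = 0.0278 and 0.0285), and lowered none. In virgin basal K8iΔRank cells Ehd1 was higher by 1.39, and the mitochondrial superoxide dismutase gene Sod2 and Plau lower, at -1.21 and -1.65 (limma adjusted p = 0.00914, 0.0365 and 0.0365). In virgin luminal K8iΔRank cells Ehd1 was lower, at -1.50 (limma adjusted p = 0.0409), and with parity in luminal K8iΔRank cells it rose by 1.07 while Sod2 was at -0.88 (limma adjusted p = 0.0124 and 0.0411). These last comparisons are the ones that coincide with the Clec2d split. In the luminal interaction 2 of 13 were above 0 (Ehd1 and Bcl2l1) and 2 below (Sod2 and Tnfaip2), and in the other comparisons none passed.

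Of 9 other measured chemokines 6 differed between lineages, Cxcl14 and Cxcl12 at -7.98 and -5.99 and Cxcl17 and Cxcl15 at 3.98 and 5.42, and none passed in any comparison of genotype or parity (limma). Of the receptors that would read the 10 genes only Cxcr2 was measured. It was at -3.25 in virgin basal K8iΔRank against K8imTmG cells (limma adjusted p = 0.0489). The K8imTmG libraries ran from 7.18 to 95.1 normalized counts (median 16.3), where the floor of 3 reads was 4.31 to 16.3. The K8iΔRank libraries ran from 0.677 to 2.48 (median 1.69), where the floor was 1.86 to 3.46. With values at or under the floor in both groups, this difference is not interpreted. This comparison coincides with the Clec2d split and with depth. Of 19 immediate-early genes, which respond to handling as well as to signals, 1 was higher and 2 were lower in virgin basal K8iΔRank cells (Klf4, Junb and Nr4a1), and of 8 heat shock genes 2 were lower there (Hspe1 and Hspa1a). With parity in luminal K8iΔRank cells Btg2 and Junb were lower and Klf4 higher, and Hspe1, Hspa1b and Hspa1a were lower. With parity in luminal K8imTmG cells Ier2 was higher, and in virgin luminal K8iΔRank cells Hspe1 was higher. Their part in the levels of Nfkbia was not tested.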

How the data were processed

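Luminal and basal mammary cells, sorted by CD24 and CD49f (luminal cells also as GFP+) after exclusion of CD45+ and CD31+ cells, were profiled by QuantSeq 3′ mRNA-seq with reads of 86 bases and UMIs of 6 bases. Per the labels and the methods, reads were deduplicated with UMI-tools, aligned with Bowtie2 to GRCm39 and counted against Gencode vM26 (SAMtools, bedtools and FastQC 0.11.9 were also named). The deposited signal values are counts that the authors divided by DESeq2 size factors, and whole reads were recovered for 100% of the values of every library (tolerance 0.1 read). Groups came from the labels.

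For each comparison genes with a normalized count above 10 in 25% or more of its libraries were kept, 1 was added, and the log2 values were tested with limma 3.58.1 in R 4.3.3 (trended prior variance). P-values were adjusted by Benjamini-Hochberg over every gene kept. Genotype and parity were tested with 2 groups per fit, lineage with all 8 groups, and the interactions with the 4 groups of a lineage. The alternatives were other pseudocounts, filters and scalings, array quality weights, the side of the Clec2d split, leaving out libraries, and tests of the recovered reads with edgeR 4.0.16 or DESeq2 1.42.0. The scripts were tested on simulated data. Summaries used pandas 2.3.3 and numpy 2.4.6 under Python 3.11.15, and plots matplotlib 3.10.9. The 10 genes, the other lists and the tests were chosen with earlier results of these data known. All 10 genes were named, with genes from among the 3 of highest Pearson's r for each and up to 4 called genes of lowest p per list and comparison. Sites were searched with the annotation Gencode vM39, which differs from that of the counts.

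The replicate numbers are mouse numbers, so that luminal and basal libraries of 1 mouse are paired by the labels. Deviations from the group means had a median r of 0.095 over the 13 same-mouse pairs, 6 of them over 0.1. With mouse as a block the lineage comparison called 6 of the 10 genes, as without it. Mice are the replicates. RNA integrity values of single libraries were not analysed here.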

Additional observations from a re-analysis of the deposited data

Results flagged for a closer look

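In 5 of 50 sets of 4 or 5 libraries of 1 group 1 library lay far from the others by Dixon's test, which chance gives in about 1 of 20 sets. Parous basal K8imTmG mouse 532 had the highest Nfkbia, at 4134 normalized counts with the next library at 2847. Parous basal K8imTmG mouse 557 had the lowest Tnfaip3, at 3.98 (1 read) with the next at 13.4. Parous basal K8iΔRank mouse 798 had the lowest Icam1, at 151 with the next at 241. Parous luminal K8iΔRank mouse 787 had the highest Csf1, at 26.3 with the next at 10.8, and the only read of Ccl2 in its group (0.381). The genotype difference of Nfkbia in luminal cells was not the same in virgin and parous mice by the test of the interaction, at -1.59 (limma adjusted p = 0.0234), with the virgin side coinciding with the Clec2d split.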

How the results depend on the processing

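Counts of the 10 genes called moved with the tool more than with the filter. The share of all genes that each alternative called is not given beside them, so that they cannot be read as an excess over other genes. The same holds for the counts of unadjusted p below 0.05 in the luminal and the genotype comparisons. Array quality weights called 1 gene in virgin luminal, 4 in parous luminal, 2 in virgin basal and 3 in parous basal genotype comparisons, 7 with parity in luminal K8imTmG and 1 in basal K8iΔRank cells, and 3 in the luminal interaction. DESeq2 called 2 in parous luminal, 2 in virgin basal and 2 in parous basal genotype comparisons, 5 and 1 with the same parities, and 2 in the luminal interaction. Quantile normalization and the side of the Clec2d split as a covariate each left 0 in the virgin basal comparison and 0 in the luminal interaction. With parity in luminal K8imTmG cells no filter and a mean of at least 50 left 0 (the latter removes Csf1), while a single fit of the lineage, the split as a covariate and the Clec2d-low libraries alone gave 2 each. A single fit of the lineage gave 3 in virgin basal and 1 in parous basal cells, and a mean of at least 50 gave 1 in the latter. Leaving out 1 library gave 0 to 2 with parity in luminal K8imTmG cells, 0 to 2 in virgin basal and 0 to 3 in parous basal comparisons, 5 to 7 between lineages, 0 to 3 in the luminal interaction and 0 elsewhere. The causes were not tested. The difference of Cxcl1 between lineages reversed to 0.15 in Clec2d-low libraries (limma adjusted p = 0.869). Of the differences of single genes under all alternatives, 1961 stayed on their side of the threshold and, where not called, moved by at most 1 standard error, 24 lost and 51 gained a call, 111 that were not called moved by more, and 1 reversed. The block on mouse changed no call between lineages, where 6 genes were called with it, and no pairing exists within a lineage. Leaving out mice 820 and 825 was chosen after seeing the data. Depth limits Tnfaip3, Cxcl2 and Ccl2, which were under 3 reads in several libraries, and the 3 reads floor covers counting error only.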
